A study of Homo sapiens with 6 samples.

Results

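TMEM177 and 6 nuclear genes that act in the maturation of COX2 were followed through RNA-seq of HEK293FT cells. The members were the rows of the deposited expression table whose gene name was TMEM177, COX20, COX18, COX16, SCO1, SCO2 or COA6, which gave 7 genes of the 58884 rows listed. TMEM177 was chosen for its rise between these groups, so its values are a description and carry no test, while the other 6 were chosen for their function. HEK293FT is a fast-growing derivative of a human embryonic kidney line that carries the SV40 large T antigen, and the 6 libraries come from this 1 line. Of these, 3 libraries (labelled ISLR) are described as coming from cells given supernatant with secreted ISLR for 72 h. The other 3 (labelled NC) are described as coming from cells given empty-vector supernatant for the same time. The cells that made the supernatants are not described in the sources used here, nor is it said whether the 3 libraries of a group were separate cultures, so every p-value measures the spread between libraries, which may be technical.

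COX2 here is the mitochondrially encoded subunit of cytochrome c oxidase, the last enzyme of the respiratory chain, and not cyclooxygenase. It is made inside the mitochondrion from the MT-CO2 mRNA, is threaded through the inner membrane, and receives a copper centre on the outer side before it joins the rest of the enzyme. In this route COX20 is the chaperone that holds newly made COX2, TMEM177 is an inner membrane protein found in complexes with COX20 and COX2, and COX18 moves the tail of COX2 across the membrane. SCO1 and SCO2 are related copper chaperones that load the copper centre, COA6 is a thiol oxidoreductase that works with them, and COX16 helps COX2 meet the copper chaperones.

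Values are TPM, a level per gene length and per library total, as deposited by the authors, and sequencing depth cannot be read from them. Libraries held 13365 to 14092 genes of at least 1 TPM, and no 2 were identical (correlation of log2 values 0.98 to 0.984 within groups and 0.963 to 0.972 between them). The ISLR transcript itself ran against the labels, at 0 to 0.02 TPM in ISLR-labelled libraries and 510.32 to 555.37 TPM in NC-labelled ones. Groups are therefore called by their labels, and each direction below would turn if the labels were exchanged. Whether they were exchanged, or the NC-labelled cells themselves carried an added ISLR gene, was not tested. The treatment stated for each group is thus uncertain too. Of 8 genes taken as marks of the HEK293 line, 7 reached 1 TPM in all libraries, with a summed level of 240.3 to 256.4 TPM in ISLR-labelled libraries and 194.7 to 234.2 TPM in NC-labelled ones. PAX2 did not reach it, and EYA1 stood at 42.13 TPM in labelled NC 3 against 1.89 to 3.02 TPM in the other 5. Of 8 markers of other cell types, 7 stayed under 2 TPM everywhere, while COL1A1 stood at 8.95 to 14.28 TPM. The summed level of these 8 was 12.25 to 13.46 TPM in ISLR-labelled libraries and 11.42 to 16.27 TPM in NC-labelled ones. Their part in the results was not tested.

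TMEM177 stood at 22.76, 22.7 and 22.5 TPM in ISLR-labelled libraries, and the 3 NC-labelled ones had 6.11, 6.57 and 6.55 TPM. All 3 libraries labelled ISLR were high and close together, and the groups were far apart. The mean was 22.65 ± 0.136 TPM against 6.41 ± 0.26 TPM (SD, n = 3 each), a 3.53-fold higher level. On the log2(TPM + 1) scale used for all differences, which understates the change of low genes, TMEM177 was 1.68 higher in ISLR-labelled libraries, the 26th highest difference among the 13869 genes tested, those that reached 1 TPM in 3 or more libraries. All genes together were not centred on 0, since their median difference was 0.22, and relative to that median TMEM177 was 1.46 higher. After median-of-ratios scaling, which sets the median of gene ratios equal between libraries, its difference was 1.45. In bulk RNA a higher level per cell and more cells with the transcript cannot be told apart. TMEM177 (ENSG00000144120.12) is a protein-coding gene on the plus strand of chromosome 2, at 119679167 to 119686507 on GRCh38 in GENCODE 29, where no other annotated gene overlaps it. Its upstream neighbour CFAP221 stood at 0.35 to 2.06 TPM over the 6 libraries and its downstream neighbour PTPN4 at 4.37 to 10.47 TPM, and neither passed the test (limma adjusted p = 0.142 and 0.0664).

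**Figure D1:**
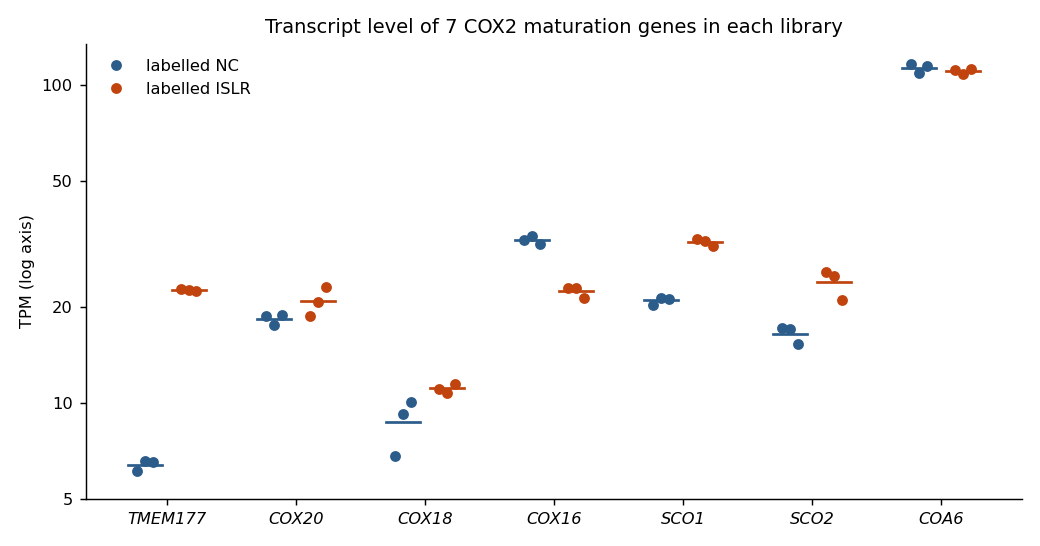
Level of each gene in TPM on a log axis, with 1 point per library and a bar at the mean of 3. TMEM177 separates most widely, COX16 lies lower in ISLR-labelled libraries (21.39 to 23.02 against 31.63 to 33.49 TPM), and the COA6 and COX20 groups overlap.

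The order of the 7 levels differed between the groups. Among the libraries labelled NC, COA6 was highest, followed by COX16, SCO1, COX20, SCO2, COX18 and TMEM177, and no neighbours in that order had overlapping ranges. In those labelled ISLR, COA6 and then SCO1 led, and COX18 was lowest. Between these, SCO2, TMEM177, COX16 and COX20 followed each other, with the range of each overlapping that of the next. TMEM177 made up 9.26, 9.36 and 9.27% of the summed TPM of the 7 genes in ISLR-labelled libraries and 2.81, 3.07 and 3.0% in NC-labelled ones. That sum was 243.6 ± 1.79 TPM against 216.5 ± 2.33 TPM (SD, n = 3 each). The level of TMEM177 per level of its partner COX20 was 1.21, 1.09 and 0.973 in ISLR-labelled libraries and 0.326, 0.374 and 0.345 in NC-labelled ones. This ratio within a library does not depend on scaling between libraries. It was given no test because TMEM177 was chosen for its rise.

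Of the 6 members chosen by function, SCO1 and SCO2 were higher and COX16 was lower in ISLR-labelled libraries, while COX20, COX18 and COA6 did not pass (limma on log2(TPM + 1), Benjamini-Hochberg adjusted p under 0.05 over all 13869 tested genes). The share of all tested genes called was 45.9%, with 38.5% called higher and 7.38% called lower, so 3 of 6 is near the background. After median-of-ratios scaling 38.6% of all genes were called, 18.2% higher and 20.4% lower, and of the 6 members SCO1 was higher, COX16 and COA6 were lower and the other 3 did not pass. With a trend on gene length also removed, a step added after seeing the data, 36.8% of all genes were called, 16.4% higher and 20.4% lower, and of the 6 members SCO1 and SCO2 were higher and COX16 and COA6 lower. The median difference of the 6 was 0.25 as deposited, against 0.22 for all tested genes, and 0.02 after scaling. SCO1 and COX16 thus passed in the same direction on both scales, while SCO2 lost its call on scaling alone and COA6 gained one. The groups did not overlap for 4 of the 6 (COX18, COX16, SCO1 and SCO2), where 56.8% of all tested genes had groups without overlap.

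The membrane insertion step, served by COX20 and COX18, gave no called difference. COX20 stood at 18.8, 20.76 and 23.12 TPM in ISLR-labelled libraries and 18.73, 17.58 and 18.97 TPM in NC-labelled ones. Its groups overlapped, and labelled ISLR 3 was the highest of the 6. The difference was 0.17 (SE 0.0852, limma adjusted p = 0.146), and it turned to -0.07 after scaling (adjusted p = 0.502). COX20 (ENSG00000203667.9, chromosome 1, 244835322 to 244845057, plus strand) shares 3502 of its 4864 annotated exon bases with HNRNPU on the other strand, which stood at 256.52 to 276.6 TPM. No source used here says whether reads were assigned by strand, so reads of the 2 genes may not have been separated. The pseudogenes COX20P1 and COX20P2 were listed at 0 in all 6 libraries.

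COX18 stood at 11.1, 10.78 and 11.51 TPM in ISLR-labelled libraries and 6.82, 9.27 and 10.11 TPM in NC-labelled ones. The groups did not overlap, but the 3 libraries labelled NC were spread widely, with labelled NC 1 the lowest. The difference was 0.33 (SE 0.135, limma adjusted p = 0.0806) and 0.11 after scaling (adjusted p = 0.563). Without labelled NC 3 it was 0.44 (limma adjusted p = 0.0414) and without labelled NC 1 it was 0.18 (limma adjusted p = 0.142). It passed with no library other than labelled NC 3 left out (limma adjusted p from 0.099 to 0.179). COX18 (ENSG00000163626.16) lies on the minus strand of chromosome 4 at 73052362 to 73069755. Its neighbour ANKRD17, on the same strand, was higher on both scales (20.92 ± 0.906 against 14.5 ± 1.09 TPM, SD, n = 3 each, limma adjusted p = 0.00194, and 0.0276 after scaling), but did not pass with the length trend also removed (0.0912, limma adjusted p).

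Of the 2 copper chaperones, SCO1 was higher on both scales. SCO1 stood at 32.7, 32.36 and 31.07 TPM in ISLR-labelled libraries and 20.32, 21.39 and 21.28 TPM in NC-labelled ones. Each library labelled ISLR was above each labelled NC by far more than the spread within a group. The level was 1.53-fold higher, a difference of 0.59 (SE 0.0541, limma adjusted p = 0.000363), and of 0.35 after scaling (adjusted p = 0.00345). SCO1 (ENSG00000133028.11, chromosome 17, 10672474 to 10698375, minus strand) shares no exon bases with ADPRM, which starts inside it on the other strand and stood at 8.05 to 9.77 TPM.

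SCO2 stood at 25.84, 25.06 and 21.04 TPM in ISLR-labelled libraries and 17.19, 17.09 and 15.3 TPM in NC-labelled ones. The groups did not overlap, and the third library was the lowest of each. The level was 1.45-fold higher, a difference of 0.51 (SE 0.0935, limma adjusted p = 0.00442), but 0.27 after scaling (adjusted p = 0.0736). The table holds 2 rows named SCO2 without gene IDs, and these values are of the row with an HGNC symbol source and a length of 992 nt. The other row, of 1051 nt, stood at 0.68 to 1.01 TPM in ISLR-labelled libraries and 0 to 1.13 TPM in NC-labelled ones, and did not pass the filter on low values. GENCODE 29 has 2 SCO2 genes on the minus strand of chromosome 22, at 50523568 to 50525606 and 50523568 to 50526439, which share 857 exon bases, so reads could be split between them.

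The SCO2 level per SCO1 level, which asks whether the paralogs shifted relative to each other, was 0.79, 0.774 and 0.677 in ISLR-labelled libraries and 0.846, 0.799 and 0.719 in NC-labelled ones. The ranges overlapped, and the mean was 0.747 ± 0.0612 against 0.788 ± 0.0642 (SD, n = 3 each). A difference was not found by a two-sided exact permutation test on the log2 ratio (p = 0.5), where 3 against 3 libraries cannot give less than 0.10.

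COX16 was the one member lower both as deposited and after scaling. It stood at 22.93, 23.02 and 21.39 TPM in ISLR-labelled libraries and 32.58, 33.49 and 31.63 TPM in NC-labelled ones. Each library labelled ISLR was below each labelled NC, and the gap was several times the spread within a group. The level was 1.45-fold higher in the libraries labelled NC, a difference of -0.52 (SE 0.0568, limma adjusted p = 0.000591) and of -0.76 after scaling (adjusted p = 0.00023). Only 3.17% of tested genes had a lower difference as deposited. COX16 (ENSG00000133983.14, chromosome 14, 70325081 to 70359731, minus strand) shares 671 of 1863 exon bases with the readthrough gene SYNJ2BP-COX16. The readthrough gene stood at 4.84, 5.88 and 5.11 TPM against 4.63, 5.0 and 2.42 TPM (limma adjusted p = 0.211), and the sum of both was still lower, at 27.72 ± 1.2 TPM against 36.58 ± 2.29 TPM (SD, n = 3 each, not tested). SYNJ2BP, whose reads could also enter the readthrough gene, stood at 5.36 to 6.1 TPM against 4.21 to 4.78 TPM.

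COA6, the most abundant of the 7, stood at 111.57, 107.78 and 112.12 TPM in ISLR-labelled libraries and 115.86, 108.49 and 114.32 TPM in NC-labelled ones. The ranges overlapped through labelled NC 2, while labelled NC 1 and labelled NC 3 lay above every library labelled ISLR. The difference was -0.03 (SE 0.0394, limma adjusted p = 0.559), and became -0.28 after scaling (adjusted p = 0.00173). Scaling moved the median of all genes from 0.22 to 0.00. COA6 (ENSG00000168275.14) lies on the plus strand of chromosome 1 at 234373456 to 234384049. A row named COA6-AS1, a symbol that GENCODE 29 does not use, stood at 1.59 to 1.93 TPM against 3.77 to 4.3 TPM (difference -0.87, limma adjusted p = 0.00113), a gene named after its values were seen. In the authors' deposited table, which also gives a comparison of the groups, the adjusted p was 6.91e-14 for SCO1, 9.88e-12 for COX16, 2.12e-09 for COA6, 0.11 for COX20, 0.185 for SCO2 and 0.327 for COX18. There 12.7% of the 58884 rows had an adjusted p under 0.05, and 51.2% of the 13869 rows tested here. In the authors' deposited table, SCO2 was thus not called and COA6 was, as after scaling here.

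**Figure D2:**
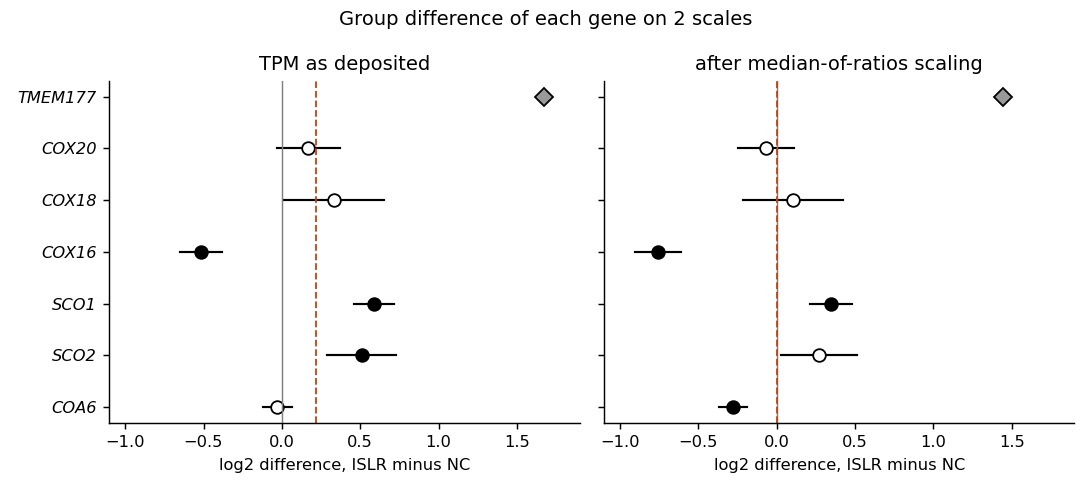
Difference of log2(TPM + 1), labelled ISLR minus labelled NC, as deposited and after median-of-ratios scaling. Lines are 95% intervals, filled circles have an adjusted p under 0.05, TMEM177 (diamond) is shown with no test, and the dashed line is the median of all tested genes (0.22 as deposited, 0.00 after scaling). SCO1 and COX16 were called on both scales.

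Promoter sequences are shown for the member chosen for its rise (TMEM177), for the 2 that passed on both scales in opposite directions (SCO1 and COX16), and for COX18, whose promoter held matches to a site known from respiratory genes. ETS family factors such as GABP, and the factor NRF1, are known regulators of nuclear genes of cytochrome c oxidase. Sequences run 5′ to 3′ over 300 bases around a RefSeq start, mostly upstream of it, on GRCh38.p14. Capitals mark matches to the ETS core CCGGAAG on either strand, or to an NRF1 site in which a position may be any base. This NRF1 site, with its open position, is not a palindrome, and its marked matches read along the printed strand. The first match marked in COX18 also reads the same on the other strand.
TMEM177, chr2:119678951-119679250, plus strand: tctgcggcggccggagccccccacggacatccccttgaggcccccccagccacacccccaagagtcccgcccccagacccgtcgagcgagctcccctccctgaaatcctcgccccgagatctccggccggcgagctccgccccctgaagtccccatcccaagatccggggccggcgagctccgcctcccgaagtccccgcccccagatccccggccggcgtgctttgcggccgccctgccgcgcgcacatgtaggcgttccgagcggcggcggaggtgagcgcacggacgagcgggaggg
SCO1, chr17:10697484-10697783, minus strand: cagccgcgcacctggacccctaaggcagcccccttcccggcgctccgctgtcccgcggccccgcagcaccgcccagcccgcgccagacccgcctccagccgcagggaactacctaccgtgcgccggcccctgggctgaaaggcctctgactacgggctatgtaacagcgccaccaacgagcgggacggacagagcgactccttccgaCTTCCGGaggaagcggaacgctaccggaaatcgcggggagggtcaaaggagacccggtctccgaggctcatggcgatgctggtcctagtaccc
COX16, chr14:70359634-70359933, minus strand: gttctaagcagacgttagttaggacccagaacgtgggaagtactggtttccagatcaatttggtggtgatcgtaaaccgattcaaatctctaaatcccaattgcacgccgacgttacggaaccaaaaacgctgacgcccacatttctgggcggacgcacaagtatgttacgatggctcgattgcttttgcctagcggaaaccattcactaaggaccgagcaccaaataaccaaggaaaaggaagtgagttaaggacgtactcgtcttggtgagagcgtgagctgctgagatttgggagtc
COX18, chr4:73069667-73069966, minus strand: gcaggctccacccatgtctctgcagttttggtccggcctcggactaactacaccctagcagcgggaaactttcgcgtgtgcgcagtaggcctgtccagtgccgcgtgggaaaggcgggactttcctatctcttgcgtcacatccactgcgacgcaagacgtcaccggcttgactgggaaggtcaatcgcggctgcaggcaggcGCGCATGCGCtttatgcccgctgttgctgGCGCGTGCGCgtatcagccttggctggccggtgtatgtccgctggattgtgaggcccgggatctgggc
SCO1 held 1 ETS match and COX18 held 2 NRF1 matches. TMEM177 and COX16 held neither, which says only that these letters are not in these windows. The table had promoters for 6 of the 7 members, 10 in all, without SCO2. Another of these, for COX20, held 2 ETS matches, and no COA6 promoter held either site. Among 35116 promoters in the table, 10.3% held the ETS core and 5.78% the NRF1 site. The G and C content was 75.0% for TMEM177 and 69.3% for SCO1 but 48.3% for COX16, where the median of all promoters was 58.7%. These matches are a description of letters, since binding was not measured.

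MT-CO2, the mRNA of the protein that these factors mature, was higher in ISLR-labelled libraries. MT-CO2 stood at 4706.14, 4704.09 and 4947.54 TPM in ISLR-labelled libraries and 2603.63, 2678.93 and 2682.33 TPM in NC-labelled ones. MT-CO1 and MT-CO3, which encode the other mitochondrial subunits of the enzyme, were also higher, and all 3 passed on both scales (limma differences 0.85 for MT-CO2, 0.73 for MT-CO3 and 0.49 for MT-CO1). Of all tested genes, 38.5% were called higher as deposited and 18.2% after scaling. The rise was not particular to this enzyme, since the mitochondrial mRNAs MT-ND1 and MT-ND2 were also higher as deposited (limma differences 1.13 and 0.79). The mitochondrial rRNAs MT-RNR1 and MT-RNR2 were lower (-0.54 and -0.47). MT-CO2 made up 38.7, 39.3 and 39.6% of the summed TPM of MT-CO1, MT-CO2 and MT-CO3 in ISLR-labelled libraries. In NC-labelled ones it made up 33.4, 34.3 and 34.3%. The share of MT-CO2 was thus 5.21 percentage points higher without overlap (two-sided exact permutation p = 0.1, the smallest p that 3 against 3 libraries can give).

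The other subunits of the enzyme, made from nuclear genes, went the other way. Of 15 listed, 12 were tested, 10 were lower and none was higher as deposited, and 11 were lower after scaling, against backgrounds of 7.38% and 20.4% of all genes called lower. COX6B1 stood at 554.8 ± 11.9 TPM in ISLR-labelled libraries against 638.5 ± 15.9 TPM (SD, n = 3 each, difference -0.20, limma adjusted p = 0.00163). COX7C (-0.20), COX7A2 (-0.25) and NDUFA4 (-0.34) were lower too. The count called lower was 5 after quantile normalization, where COX7C did not pass (-0.105, limma adjusted p = 0.0712), and 6 without the trend and robust options of limma. The tissue-specific subunits COX4I2, COX6A2 and COX7A1 were listed at 0 in all libraries. MT-CO2 per summed nuclear subunit TPM was 0.687, 0.69 and 0.731 in ISLR-labelled libraries and 0.341, 0.342 and 0.358 in NC-labelled ones. That ratio was not tested. Differences varied with gene length. The median difference as deposited was -0.02 among tested genes with lengths of 81 to 1052 nt, and 0.32 where the length was 5667 to 7343 nt, and 11 of the 12 tested nuclear subunits were shorter than the median tested gene of 3342 nt. With scaling and the trend on length removed, 11 of the 12 were still lower.

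**Figure D3:**
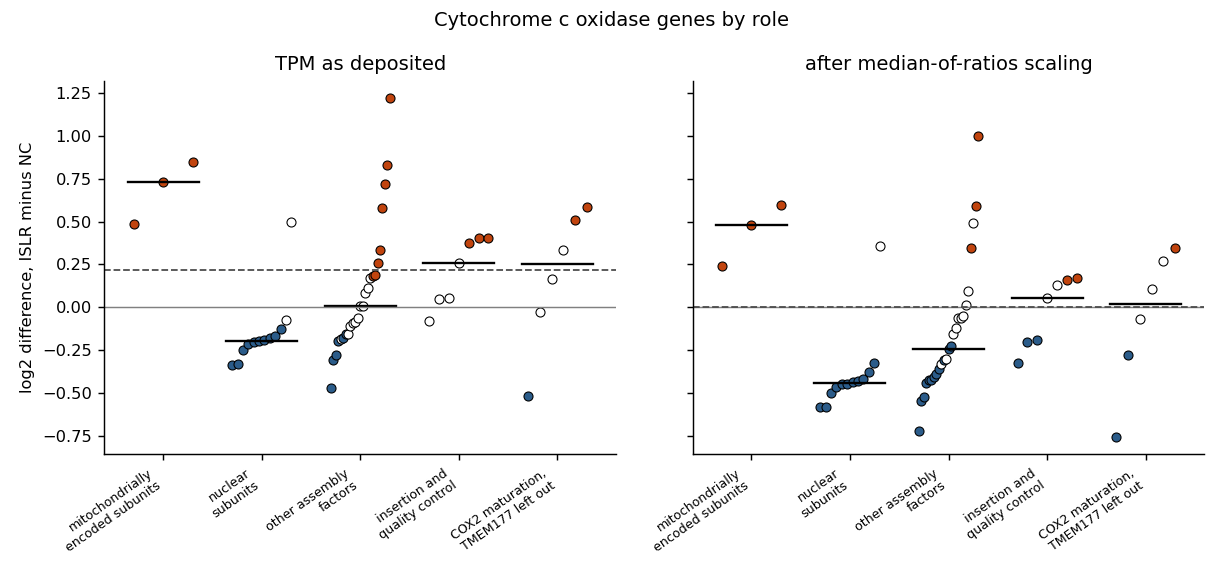
Difference of log2(TPM + 1), labelled ISLR minus labelled NC, for each tested gene of 5 lists of cytochrome c oxidase genes, on 2 scales. Filled points have an adjusted p under 0.05 (orange higher, blue lower), bars are list medians and the dashed line is the median of all tested genes. The mitochondrially encoded subunits lie above and the nuclear subunits below, with list medians of 0.73 and -0.19 as deposited.

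The other assembly factors of the enzyme were mixed. Of 25 tested, 8 were higher and 6 lower as deposited, where 38.5% of all tested genes were called higher and 7.38% lower. The median difference was 0.01 against 0.22 for all genes. After scaling 3 were higher and 12 lower, against 18.2% and 20.4% of all genes. On both scales 3 were higher and 6 lower, but the share of all tested genes called on both scales was not computed. The 3 higher on both scales were COA7, an assembly factor of the intermembrane space, TACO1, which activates translation of the COX1 subunit, and PET117, which works with the heme A enzyme COX15. COA7 stood at 12.49, 12.33 and 13.59 TPM in ISLR-labelled libraries and 4.48, 4.63 and 5.69 TPM in NC-labelled ones (difference 1.22, SE 0.104, limma adjusted p = 0.000263). TACO1 stood at 31.4, 32.54 and 31.63 TPM against 18.03, 17.11 and 17.21 TPM (0.83, limma adjusted p = 0.000107). PET117 stood at 23.28 ± 2.16 TPM against 15.19 ± 0.271 TPM (SD, n = 3 each, 0.58, limma adjusted p = 0.00132). These 3, named for their small p, had no overlap between groups, where 56.8% of all tested genes had groups without overlap. CMC2, a small protein of the intermembrane space, was lower, at 152.1 ± 9.96 TPM in ISLR-labelled libraries against 211.3 ± 7.93 TPM (SD, n = 3 each, -0.47, limma adjusted p = 0.000661). The other 5 lower on both scales, listed after their values were seen, were SLIRP, which binds mitochondrial mRNAs (-0.16), HIGD2A (-0.20), COX10, which makes heme O (-0.31), CHCHD7 (-0.28) and COX17. COX17, which hands copper to SCO1 and SCO2, stood at 111.5 ± 6.72 TPM in ISLR-labelled libraries against 126.2 ± 6.37 TPM (SD, n = 3 each, -0.18, limma adjusted p = 0.0375).

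Of 7 genes of general membrane insertion and quality control, YME1L1 and AFG3L2, which encode proteases of the inner membrane, were higher on both scales. YME1L1 stood at 53.59 ± 1.74 TPM against 40.31 ± 2.13 TPM (SD, n = 3 each, difference 0.40, limma adjusted p = 0.00137), and AFG3L2 at 22.19 ± 0.555 TPM against 16.49 ± 0.685 TPM (0.41, limma adjusted p = 0.00197). After scaling both passed only narrowly (limma adjusted p = 0.0461 for YME1L1 and 0.0499 for AFG3L2). After quantile normalization YME1L1 passed (limma adjusted p = 0.013) and AFG3L2 did not (0.0952). Neither YME1L1 nor AFG3L2 passed once the trend on gene length was also removed (limma adjusted p = 0.182 and 0.103). In all, 3 of the 7 were higher and none lower as deposited, near the 38.5% of all genes called higher, and 2 were higher and 3 lower after scaling, against 18.2% and 20.4% of all genes. OXA1L, the general insertase of the inner membrane, stood at 155.5 ± 6.11 TPM against 150.5 ± 2.38 TPM as deposited (SD, n = 3 each, limma adjusted p = 0.355). It was called lower after scaling (difference -0.20, limma adjusted p = 0.0048) and with the length trend also removed (-0.21, limma adjusted p = 0.00461).

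**Figure D4:**
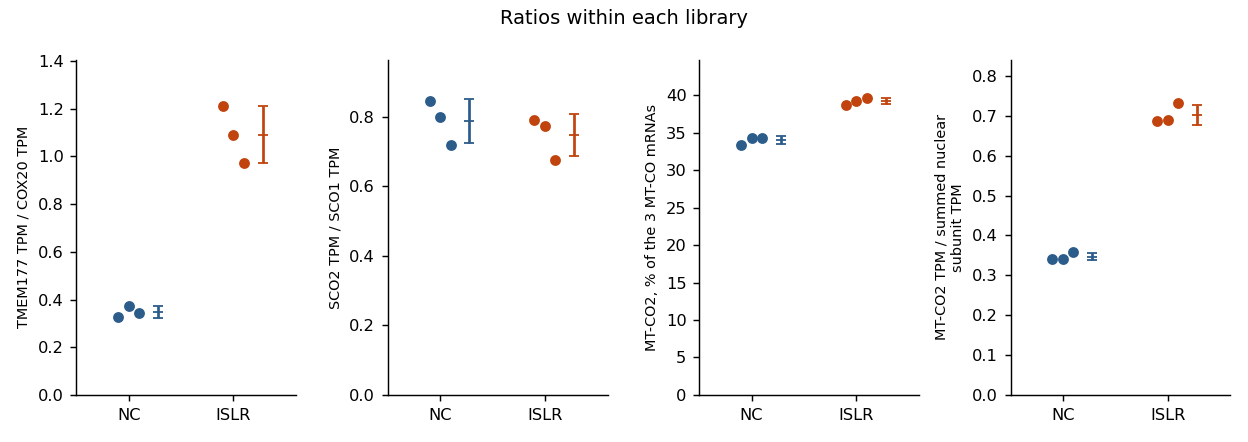
Ratios within each library, with points for libraries and a mean with SD beside them, on axes that start at 0. TMEM177 per COX20 (0.326 to 0.374 labelled NC, 0.973 to 1.21 labelled ISLR) and MT-CO2 per summed nuclear subunit TPM separate the groups, the MT-CO2 share separates them by 5.21 percentage points, and SCO2 per SCO1 overlaps.

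The 5 genes whose pattern was nearest to that of TMEM177 came from outside this route. Likeness was the root mean square distance between log2(TPM + 1) values over the 6 libraries, each centred on the gene's own mean, among the 9729 tested genes whose higher group averaged 5 TPM or more. The nearest were PLAGL2, a zinc finger transcription factor (distance 0.0396), TRIM32, a ubiquitin ligase (0.0698), MED1, a Mediator subunit (0.0723), DGCR8, a partner of Drosha in microRNA processing (0.0876), and FAM222B (0.0917). PLAGL2 stood at 18.84, 17.99 and 18.38 TPM in ISLR-labelled libraries and 5.19, 5.11 and 5.34 TPM in NC-labelled ones. These 5 were picked for likeness to a gene that was itself chosen for its rise, so their differences carry no test. The other members were farther from TMEM177, from 0.544 for SCO1 to 1.1 for COX16. SCO1 and SCO2 held places 1280 and 1955 of the 9729, and COX16 held place 9346. This distance grows with the gap between the group differences of 2 genes. A gene chosen for its rise thus lies near other risers and far from genes that rose less. The places of the members restate their differences given above, and are no separate sign of whether they follow TMEM177.

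**Figure D5:**
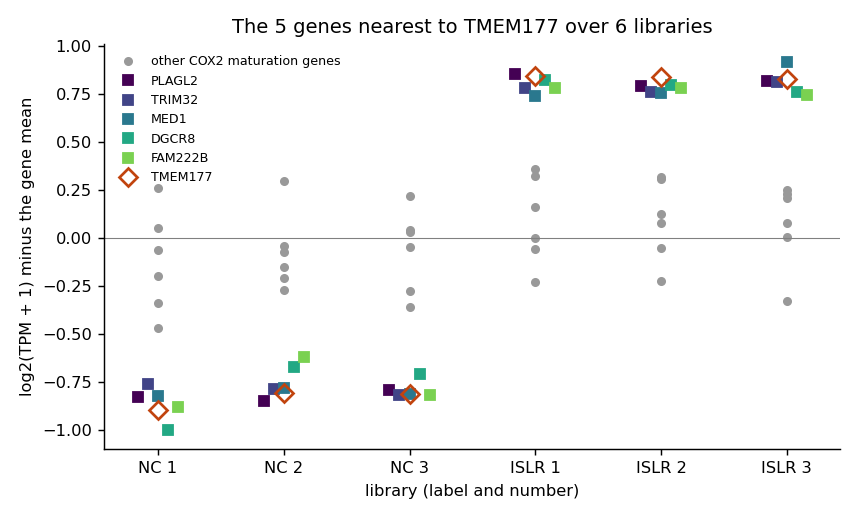
Values of log2(TPM + 1) minus the gene's mean over the 6 libraries, for TMEM177 (open diamonds), the 5 nearest genes (squares) and the other 6 COX2 maturation genes (grey). The 5 nearest genes lie with TMEM177 in each library, at distances of 0.0396 to 0.0917, and the other members lie nearer 0.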

How the data were processed

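The deposited table gives TPM per gene and library, computed by the authors, their mean TPM of each group, and p-values and adjusted p-values of the authors' comparison, for which DESeq2 is named in the name of the deposited table. It also holds a length per gene in other units (nt), deposited by the authors. HISAT2, Cufflinks and RSEM and the build GRCh38.p10 appear, without roles, per the submitters' processing notes, so the origin of the TPM and the use of strand are not known here. Library columns were matched to samples by title, and 1 blank row was left out.

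The 13869 genes that reached 1 TPM in 3 or more libraries were fitted on log2(TPM + 1) with limma 3.58.1 in R 4.3.3, with group as the only term, an intensity trend and robust variance estimation. A gene was called where its two-sided p, after Benjamini-Hochberg adjustment over all genes fitted, was under 0.05. The fit was checked on simulated data. Ratios within libraries were tested by exact permutation. The members, lists and tests were chosen with earlier results of these data known. Named genes are the 7 members, ISLR, the 3 mitochondrial COX mRNAs, up to 4 genes of each other list called on both scales with the smallest p, the 5 genes nearest to TMEM177, and the members' neighbours. Markers, pseudogenes, subunits listed at 0, OXA1L, COA6-AS1 and 5 assembly factors lower on both scales were named outside this rule. So were MT-ND1, MT-ND2, MT-RNR1 and MT-RNR2, all after their values were seen. Gene lists were matched by symbol. Alternatives were other pseudocounts, filters, scalings and limma options, a replicate block and each library left out. Removal of the length trend (lowess, span 0.3) was added after seeing the data. Positions are from GENCODE 29 and promoters from RefSeq (GRCh38.p14). Python 3.11.15 and matplotlib 3.10.9 made the figures.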

Additional observations from a re-analysis of the deposited data

How the results depend on the processing

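Directions of the called members held in all alternatives run: COX16 stayed lower and SCO1 higher with an adjusted p under 0.05, and SCO2 stayed higher but lost its call after median-of-ratios scaling (adjusted p = 0.0736) and quantile normalization (0.0999). COX20 turned from 0.17 to -0.069 after scaling, -0.093 after quantile normalization and -0.059 with the length trend also removed, never past the threshold. TMEM177 was 1.81 higher with a pseudocount of 0.1, 1.28 with 5, 1.45 after scaling, 1.40 after quantile normalization and 1.54 with the length trend also removed. After scaling, 2521 genes were called higher and 2827 lower, after quantile normalization 2454 and 2111, and with the length trend also removed 2281 and 2829, against 5346 and 1024 as deposited. For the 6 members chosen by function, scaling gave 1 higher and 2 lower, quantile normalization 1 and 1, and removal of the length trend 2 and 2. For the other assembly factors these gave 3 and 12, 4 and 9, and 4 and 10, with 3 lower for limma without trend and robust options. For insertion and quality control they gave 2 and 3, 1 and 0, and 0 and 2. Nuclear subunits called lower numbered 5 after quantile normalization and 6 without trend and robust options. The causes of these moves were not tested.

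With 1 library left out in turn, 2 to 3 of the 6 members were called higher and 1 lower, 5 to 8 other assembly factors were higher and 4 to 6 lower, 2 to 3 insertion genes were higher, and 0 to 1 nuclear subunits were higher and 8 to 10 lower. Over all genes 4057 to 4713 were higher and 785 to 930 lower. TMEM177 was 1.65 to 1.69 higher, the MT-CO2 share 4.92 to 5.44 points higher, and the log2 ratio of SCO2 to SCO1 lay between -0.141 and -0.00723. The 5 other assembly factors were counted without labelled ISLR 3, and the 1 nuclear subunit called higher was counted without labelled NC 3.

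No source used here says whether replicate numbers pair the samples. Same-numbered libraries had correlations of deviations of 0.0201, 0.0468 and -0.0556, and other pairs between the groups had -0.0644 to 0.046. Pairing was thus not visible in the values, which cannot show that the design was unpaired. With the replicate block, 4841 genes were called higher and 937 lower, the 6 members gave 2 and 1 as without it, the MT-CO2 share differed by 5.21 points and the log2 ratio of SCO2 to SCO1 by -0.0766 (exact sign-flip p = 0.25 for both, the smallest 3 pairs can give). Without depth, counting error could not be estimated.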
